A study of Sus scrofa with 18 samples.

Results

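LGALS1 and LGALS3 encode galectin-1 and galectin-3, lectins that bind galactose-containing sugars, and their mRNA levels were examined in retinas of piglets fed with or without sialyllactose. All probe sets were taken whose only gene symbol in the platform annotation was LGALS1 or LGALS3. Each gene had 1 probe set, so these were 2 of the 24123 probe sets on the array and 2 of the 6765 genes with a named probe set. Both lay above the level filter used for testing. The 18 retinas were those of male domestic piglets (Landrace x Large White), enrolled at 3 days of age, placed at random on a diet and sampled on postnatal day 38. Of these, 9 received a pig milk replacer with a sialyllactose supplement and 9, the controls, received the pig milk replacer at its basal level. Both diets shared the replacer, the housing and the feeding times, and the labels give no dose of sialyllactose, no litter and no batch. Sialyllactose is a milk sugar in which sialic acid is joined to lactose. The title of the series asks how it benefits the developing retina and sight.

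Galectins are made in the cytoplasm, leave the cell by an unconventional route and cross-link glycoproteins and glycolipids at the cell surface through terminal galactose. Galectin-1 has a single sugar-binding domain and acts as a dimer, whereas galectin-3 joins such a domain to a flexible tail through which it forms larger assemblies. Their ligands are set by other enzymes: MGAT1 and MGAT5 build the branches of N-glycans that carry the galactose, and ST6GAL1 caps that galactose with sialic acid in a linkage that blocks binding of galectin-1. In the retina galectins are known mainly from Mueller glia, the radial support cells of the tissue, from blood vessels and, for galectin-3, from activated microglia and macrophages.

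Levels are log2 values, and 1 unit is a doubling of the array signal. After control probe sets and the dimmest 30% were left out, 16799 probe sets were tested, which represented 5710 named genes. The tissue label was checked against marker genes: SAG, rod arrestin, lay between 10.25 and 10.74 with sialyllactose and between 10.51 and 10.81 in controls, and all 22 Mueller glia genes with a named probe set were tested. Of 52 microglia and macrophage genes, 36 had a named probe set and 17 passed the level filter, so that cell type was measured thinly. The array of control replicate 2 stood apart from the rest. It held 51.3% of the squared scores of the first principal component of the within-diet deviations, a component with 14.4% of their variance. Both galectins were highest in that retina, so relations between genes are described with it and without it. The arrays correlated with each other between 0.981 and 0.992.

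LGALS1 had slightly lower levels with sialyllactose, without passing the test. Its level in the 9 sialyllactose retinas was 7.57 at the lowest, 7.85 at the median and 8.10 at the highest, against 7.65, 7.98 and 8.57 in the 9 control retinas. The 2 ranges overlapped, and 8 of 9 sialyllactose retinas lay below the control median. The mean was 7.82 ± 0.18 with sialyllactose and 8.05 ± 0.29 in controls (log2, SD, n = 9 each), a difference of -0.23 (95% interval -0.45 to -0.01) or 0.851-fold. The limma adjusted p over all tested probe sets was 0.773, and a two-sided exact permutation test over all splits of the 18 retinas gave p = 0.0594. For background, 0% of the 16799 probe sets passed the adjusted threshold of 0.05 for diet, and 6.3% had an unadjusted p under 0.05. Without control replicate 2 the LGALS1 difference was -0.17, the smallest size among the fits that left out 1 array, and the largest size was -0.28 without control replicate 5.

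LGALS3 had nearly the same mean in both diets. Its level in sialyllactose retinas was 1.92 at the lowest, 2.42 at the median and 3.24 at the highest, against 1.92, 2.17 and 3.70 in control retinas. The lowest retinas of the 2 diets were equal to the second decimal, and the ranges overlapped almost in full. The mean was 2.47 ± 0.45 with sialyllactose and 2.46 ± 0.57 in controls (log2, SD, n = 9 each), and the difference of 0.01 (95% interval -0.44 to 0.45) had a limma adjusted p of 0.999 and a two-sided exact permutation p of 0.982. A difference within that interval, in either direction, was not detectable at this spread. Its direction depended on single arrays, with 0.16 without control replicate 2 and -0.09 without sialyllactose replicate 2, and it also turned when the tested probe sets were quantile normalized again (-0.002).

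LGALS3 varied more between retinas on the same diet than most probe sets. Its within-diet SD stood at the 99.1st percentile of the tested probe sets, and that of LGALS1 at the 89.5th percentile. From the lowest to the highest retina LGALS1 spanned 1.45-fold with sialyllactose and 1.89-fold in controls. LGALS3 spanned 1.32 log2 units with sialyllactose and 1.79 in controls. It was a dim probe set, with 47% of the non-control probe sets below its mean, against 98.3% below that of LGALS1, and the values carry no detection call, so its span is not given as a fold and how much of it is background was not tested. The mean absolute deviation from the diet median was 0.14 with sialyllactose and 0.23 in controls for LGALS1 (two-sided exact permutation p = 0.199, n = 9 each). For LGALS3 it was 0.32 with sialyllactose and 0.39 in controls (two-sided exact permutation p = 0.72, n = 9 each). Neither difference in spread passed, and for LGALS3 its sign turned without control replicate 2, to 0.06 higher with sialyllactose.

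**Figure D1:**
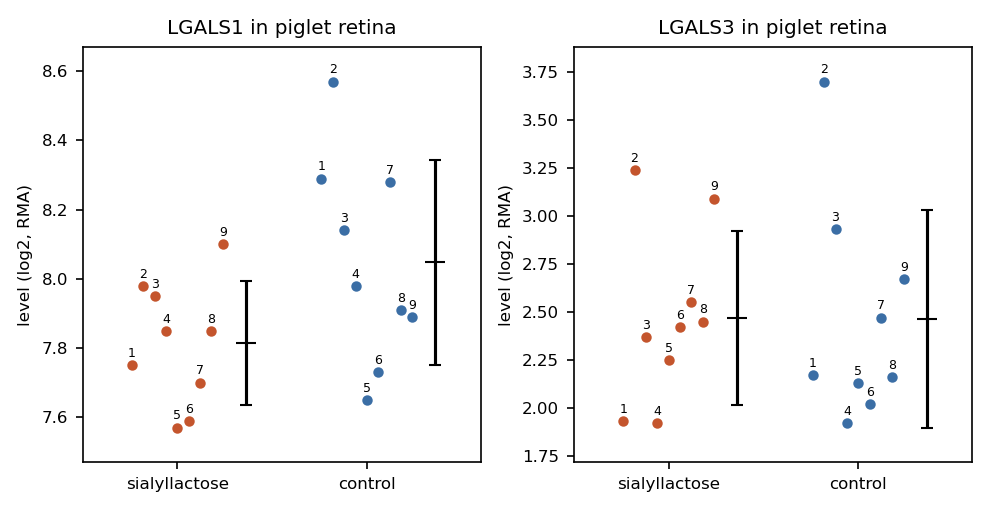
Level of LGALS1 (left) and LGALS3 (right) on the log2 scale in each retina, with the replicate number above each point, and the mean ± SD of each diet as a bar (n = 9 each). LGALS1 averaged 7.82 with sialyllactose and 8.05 in controls, LGALS3 averaged 2.47 with sialyllactose and 2.46 in controls, and control replicate 2 was the highest retina for both genes.

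Of the other galectins only LGALS9 passed the level filter. LGALS2, LGALS4 and LGALS8 had a named probe set but lay under the level filter, with means over 18 arrays of 1.04, 1.30 and 1.36. LGALS9, which is induced by interferon in many cell types, lay between 2.53 and 2.93 with sialyllactose, against 2.45 to 2.83 in controls. Its mean was 2.78 ± 0.15 with sialyllactose and 2.64 ± 0.13 in controls (limma adjusted p = 0.779). Its mean over 18 arrays was 2.71. Its within-diet r was 0.06 to LGALS1 and -0.33 to LGALS3, and 0.23 and -0.25 without control replicate 2.

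The next question was whether the galectins varied together, and with which glial and immune genes, among retinas on the same diet. Each array was expressed as its deviation from the mean of its diet, and genes were compared by Pearson's r of these deviations over 18 retinas. In whole-tissue RNA, fewer cells of a type and less RNA per cell cannot be told apart. LGALS1 and LGALS3 deviated in the same direction, with r = 0.65 (permutation p = 0.00633 within diets) and Spearman's rho = 0.50. The relation had r = 0.56 among sialyllactose retinas and 0.70 among controls, and no difference in slope between the diets was detected (limma interaction unadjusted p = 0.939). It was weaker without control replicate 2 (r = 0.45, permutation p = 0.069), and without the 2 retinas farthest from the LGALS1 median, control replicates 2 and 5, r was 0.45. It did not pass over all probe sets (limma adjusted p = 0.123).

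Of 26 key genes of glia, microglia and galectin ligands, 18 were tested, which with the galectin pair gave 37 relations. At an unadjusted permutation p under 0.05 there were 7 of 37 by r and 5 by rho, and without control replicate 2 there were 7 and 6. By the unadjusted limma p there were 8 of 37. For comparison, over all genes 8.37% had a positive and 6.04% a negative association with LGALS1 at an unadjusted limma p under 0.05. With LGALS3 these shares were 8.27% and 8.76%. Without control replicate 2 these shares were 4.2% and 2.73% with LGALS1 and 3.54% and 4.61% with LGALS3. In limma over all probe sets 0 of the 37 relations had an adjusted p under 0.05.

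Among Mueller glia genes RLBP1, which carries retinaldehyde in these cells, followed LGALS1 most closely. RLBP1 lay at 8.63 at the lowest, 8.78 at the median and 9.05 at the highest with sialyllactose, against 8.64, 8.97 and 9.28 in controls. Retinas high in LGALS1 were high in RLBP1 in both diets. The r was 0.79 (permutation p = 0.00044, rho = 0.71), 0.70 with sialyllactose and 0.83 in controls, 0.71 without control replicate 2, and 0.65 without control replicates 2 and 5, the retinas farthest from the LGALS1 median. Its limma adjusted p was 0.0959. GLUL, the glutamine synthetase that clears glutamate in the same cells, had r = 0.62 with LGALS1 (permutation p = 0.00338, 0.52 without control replicate 2). Its rho was 0.47 (permutation p = 0.0633), and 0.37 without control replicate 2 (permutation p = 0.162). Of its 3 tested probe sets 2 had a positive sign. The dimmest had r = -0.13, and -0.44 without control replicate 2. DBI, a lipid-binding protein of Mueller glia, had r = 0.64 with LGALS1 and 0.57 without control replicate 2. CLU, the secreted chaperone clusterin, had r = 0.56 with LGALS1, and 0.51 without control replicate 2.

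VIM, the intermediate filament of Mueller glia, and CRYAB, a small heat shock protein, depended on 1 array. VIM had r = 0.30 with LGALS1 over all retinas and 0.58 without control replicate 2, in which LGALS1 was highest but VIM, at 8.54, was near the low end of the controls. CRYAB had r = 0.23 with LGALS1 and 0.58 without that array. GFAP, a filament of astrocytes that Mueller glia make under stress, had r = 0.14 with LGALS1 and 0.09 without control replicate 2 in its brightest probe set. Its other 3 tested probe sets, all dimmer, had r of -0.54, 0.04 and -0.33 with LGALS1, and -0.30, 0.20 and -0.07 without control replicate 2.

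Over the whole list, 16 of 22 tested Mueller glia genes had a positive r with LGALS1, with a median of 0.28, against a median of 0.04 over all tested genes. Of the 5708 tested genes other than LGALS1 and LGALS3, 3115 had a positive r. At an unadjusted p under 0.05, 6 of the 22 were positive and 0 negative, against 8.37% and 6.04% of all genes. Without control replicate 2 there were 7 and 0, against 4.2% and 2.73% of all genes, and the median was 0.27. No member passed over all probe sets. By diet the median was 0.22 with sialyllactose and 0.32 in controls. For diet itself, means with sialyllactose were higher in 6 and lower in 16 of these 22 genes. Of the 5708 tested genes other than LGALS1 and LGALS3, 2471 were higher and 3237 lower. None of the 22 passed over all probe sets. Before adjustment 0 were higher and 1 was lower at a p under 0.05, against 2.15% and 3.47% of all genes. The summed level of the 22 genes ran from 134.9 to 140.3 with sialyllactose and from 137.8 to 143.1 in controls. Whether the number of glia differed between these retinas was not tested.

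With LGALS3, GLUL gave the closest relation among these genes. GLUL ran from 10.13 through a median of 10.43 to 10.87 with sialyllactose, and from 10.21 through 10.59 to 10.97 in controls. The retinas highest in LGALS3, control replicate 2 and sialyllactose replicates 2 and 9, were all high in GLUL. GLUL had r = 0.72 with LGALS3 (permutation p = 0.00078, rho = 0.63), 0.74 with sialyllactose and 0.76 in controls. It was 0.66 without control replicate 2 and 0.56 without sialyllactose replicate 2 as well, with a limma adjusted p of 0.0651. DBI had r = 0.61 with LGALS3, and 0.54 without control replicate 2. RLBP1 had r = 0.59, which was 0.38 without control replicate 2 and 0.33 without that array and sialyllactose replicate 2, the retinas farthest from the LGALS3 median, so it rested on them. VIM had r = -0.24 with LGALS3 (permutation p = 0.364), and -0.08 without control replicate 2. The probe sets of GFAP disagreed with each other. The brightest had r = -0.0002 with LGALS3 (permutation p = 0.999), and -0.11 without control replicate 2. The dimmest, with a mean level of 1.62, had r = -0.68 (limma unadjusted p = 0.000944, adjusted p = 0.0772), and -0.55 without that array. The other two had r of -0.41 and 0.07, and -0.05 and 0.27 without it. Over the list 12 of 22 Mueller glia genes were positive with LGALS3, with a median of 0.03 against 0.003 over all tested genes.

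**Figure D2:**
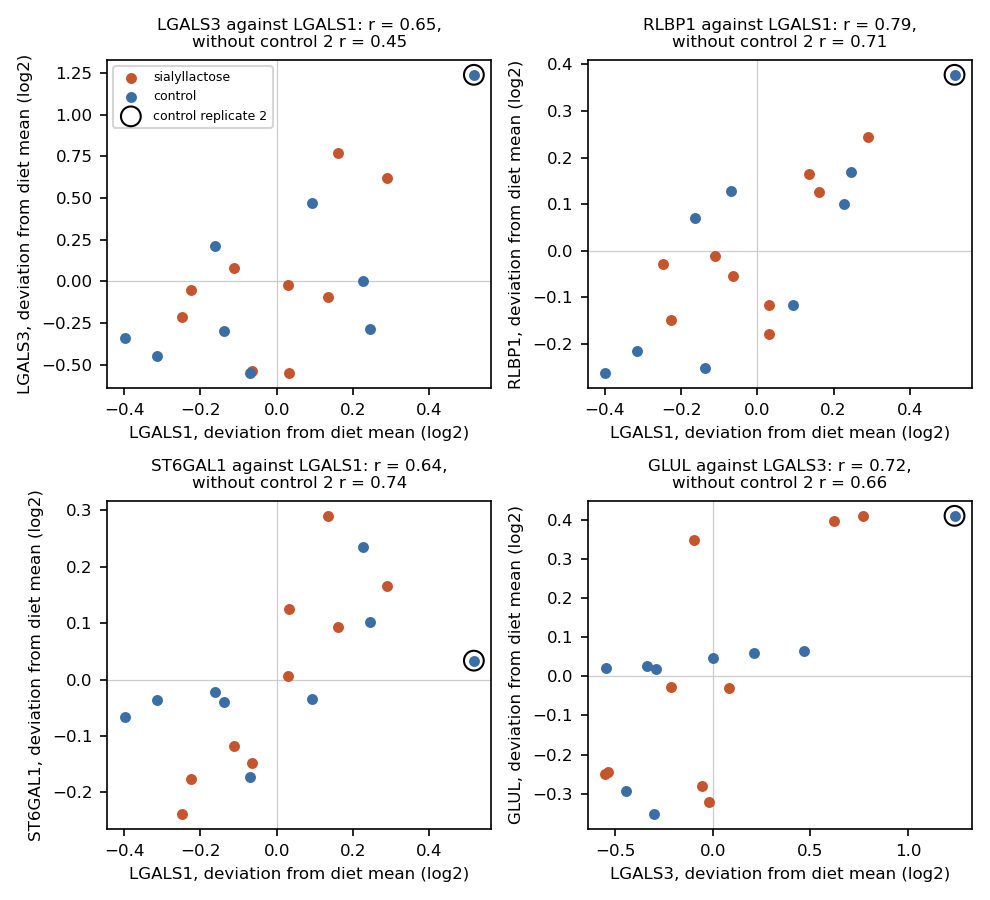
Deviation of each retina from its diet mean (log2) for LGALS3, RLBP1 and ST6GAL1 against LGALS1 and for GLUL against LGALS3, with sialyllactose and control retinas in different colours and control replicate 2 ringed. All 4 relations were positive, with r of 0.65, 0.79, 0.64 and 0.72 over all arrays and 0.45, 0.71, 0.74 and 0.66 without control replicate 2.

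Genes of astrocytes and glial stress had no common direction. With LGALS1, 11 of 23 tested genes were positive and 12 negative, with a median of -0.01. TIMP1, an inhibitor of matrix proteases that rises in reactive glia, had r = 0.61 with LGALS1 with and without control replicate 2. By ranks it was weaker, with rho = 0.33 (permutation p = 0.196), and 0.25 without control replicate 2 (permutation p = 0.369). Its r was -0.04 with sialyllactose and 0.75 in controls, and the difference in slope did not pass over all probe sets (limma interaction unadjusted p = 0.0493). With LGALS3, 9 of 23 were positive and the median was -0.03. GJA1, the main gap junction protein of astrocytes, had the most negative r with LGALS3 in this list. It lay between 1.74 and 3.59 with a median of 2.30 with sialyllactose, and between 1.95 and 3.88 with a median of 2.89 in controls. Its r was -0.68 (permutation p = 0.00279), -0.67 without control replicate 2, and the limma adjusted p was 0.0718. NDRG2, also an astrocyte gene, had r = -0.57 with LGALS3 and -0.48 without control replicate 2. Sialyllactose replicate 1 and control replicate 4 were the highest of their diets in GJA1 and in TTR, a pigment epithelium gene. TTR had r = -0.47 with LGALS3, and -0.46 without control replicate 2. Of 8 tested pigment epithelium genes, 3 were positive and 5 negative with LGALS3. Their median was -0.14, and -0.25 without control replicate 2. The part of pigment epithelium in these relations was not tested.

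For diet, means of the astrocyte and glial stress genes lay mostly on the same side as that of LGALS1. With sialyllactose 3 were higher and 20 lower of the 23, against 2471 and 3237 of the 5708 tested genes other than LGALS1 and LGALS3. The median difference of the 23 genes was -0.07, against -0.01 over all tested genes. Before adjustment, p was under 0.05 for 6 of the lower and 0 of the higher ones, against 3.47% and 2.15% of all genes, and none passed over all probe sets. The mean of GFAP was 5.28 ± 0.23 with sialyllactose and 5.69 ± 0.38 in controls (log2, SD, n = 9 each; limma adjusted p = 0.691), so its brightest probe set differed by -0.41, and its dimmer ones by 0.25, 0.12 and -0.02. CRYAB differed by -0.44 and ANXA2, a membrane-binding annexin, by -0.25 (limma adjusted p = 0.753 and 0.691). VIM, of the Mueller glia list, differed by -0.27 (limma adjusted p = 0.753). The part of glial genes in the LGALS1 difference was not tested.

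Microglia and macrophage genes gave no common direction either. AIF1, which encodes the microglial marker Iba1, lay near the bottom of the measured range, between 1.49 and 1.97 with sialyllactose and between 1.14 and 2.32 in controls. Its highest retina was control replicate 2. AIF1 had r = 0.51 with LGALS1 and 0.44 with LGALS3, and 0.30 and 0.15 without that array. With LGALS3 its r was -0.33 among sialyllactose retinas and 0.73 among controls, a difference in slope with a limma interaction p of 0.00907 before adjustment, and 0 of 16798 probe sets passed after adjustment. CD14, the endotoxin co-receptor of monocytes, had r = 0.45 with LGALS1 and 0.34 with LGALS3, and 0.21 and -0.01 without control replicate 2. LAPTM5, a lysosomal protein of leukocytes, had r = 0.07 with LGALS1 and -0.23 with LGALS3, and 0.23 and -0.12 without that array. CYBA, a subunit of the phagocyte oxidase, had r = 0.61 with LGALS1, 0.39 without control replicate 2 and 0.20 without control replicates 2 and 5.

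IL1B, an inflammatory cytokine, ran against both galectins, with r = -0.54 to LGALS1 and -0.64 to LGALS3. Without control replicate 2 these were -0.37 and -0.49, and without the 2 retinas farthest from the LGALS3 median, control replicate 2 and sialyllactose replicate 2, the r with LGALS3 was -0.16, so the relation rested on those retinas. GPNMB, a glycoprotein of phagocytes, had r = -0.48 with LGALS3, and -0.46 without control replicate 2. Its highest retina of each diet was also that of GJA1 and TTR, sialyllactose replicate 1 and control replicate 4. Over all 17 tested microglia and macrophage genes the median r was 0.0004 with LGALS1 and -0.02 with LGALS3, and 9 and 8 of the 17 were positive. Without control replicate 2 the medians were 0.21 and 0.004. The summed level of the 17 genes ran from 47.7 to 52.6 with sialyllactose and from 48.4 to 56.1 in controls.

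**Figure D3:**
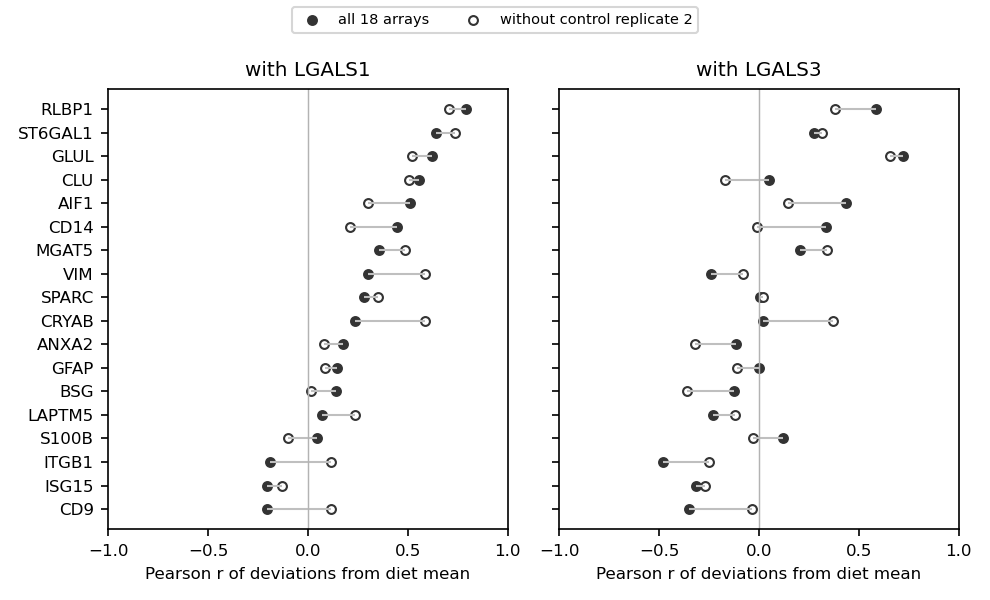
Within-diet Pearson r of the 18 tested key genes with LGALS1 (left) and LGALS3 (right), filled for all 18 arrays and open without control replicate 2, joined by a line. With LGALS1, r was above 0.5 either way for RLBP1, ST6GAL1, GLUL and CLU, and with LGALS3 for GLUL.

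Among the enzymes that shape galectin ligands, ST6GAL1 tracked LGALS1. ST6GAL1 lay at 4.20 at the lowest, 4.44 at the median and 4.73 at the highest with sialyllactose, against 4.17, 4.31 and 4.58 in controls. Sialyllactose retinas high in LGALS1 were high in ST6GAL1 with little exception, and control replicate 2, the highest in LGALS1, was close to the control mean at 4.38. The r was 0.64 (permutation p = 0.00161, rho = 0.78), 0.74 without control replicate 2 and 0.77 without control replicates 2 and 5. By diet it was 0.88 with sialyllactose (exact permutation p = 0.00257, n = 9) and 0.56 in controls (exact permutation p = 0.115, n = 9). The slopes differed with a limma interaction p of 0.0164 before adjustment, which did not pass over all probe sets, and the relation itself had a limma adjusted p of 0.175. With LGALS3, ST6GAL1 had r = 0.28, and 0.31 without control replicate 2.

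The branching enzymes gave smaller values with LGALS1, and whether they differ from that of ST6GAL1 was not tested. MGAT1 had r = 0.57 with LGALS1 and 0.63 with LGALS3, and 0.47 and 0.56 without control replicate 2. MGAT4B had r = 0.56 with LGALS1 with and without that array, and MGAT5 had r = 0.36 with LGALS1 and 0.49 without control replicate 2. FUT8, which adds the core fucose of N-glycans, had r = -0.53 with LGALS3 in its brighter probe set, -0.49 without control replicate 2, and -0.01 in its dimmer one either way. Of the 16 tested genes of N-glycan branching and sialylation, 13 were positive with LGALS1 (median 0.26) and 11 with LGALS3 (median 0.21, 0.07 without control replicate 2). Over all 5708 tested genes, 3115 were positive with LGALS1 and 2883 with LGALS3. The lowest r of the 16 with LGALS1 was -0.47. With LGALS1, 3 of the 16 were positive and 0 negative at an unadjusted p under 0.05, against 8.37% and 6.04% of all genes. Without control replicate 2 there were 4 and 1, against 4.2% and 2.73%. For diet, means with sialyllactose were higher in 6 and lower in 10 of the 16, and 0 passed. Of the 5708 tested genes other than LGALS1 and LGALS3, 2471 were higher and 3237 lower. ST6GAL1 itself differed by 0.10 between the diets (limma adjusted p = 0.862).

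Surface partners of galectins had no common direction with LGALS3 in both diets. Of 17 tested receptors and partners, 4 were positive and 13 negative with LGALS3, with a median of -0.24, and -0.09 without control replicate 2. By diet the median was 0.06 with sialyllactose and -0.39 in controls. At an unadjusted p under 0.05, 0 were positive and 1 negative, against 8.27% and 8.76% of all genes. PDCD6IP, which encodes ALIX, an adaptor of membrane repair that galectin-3 recruits, had the most negative value, at r = -0.76 (permutation p = 0.0005) and -0.61 without control replicate 2, with a limma adjusted p of 0.0937. ITGB1, the integrin beta-1 chain, had r = -0.48 with LGALS3. Its r was 0.06 with sialyllactose and -0.82 in controls, and -0.25 without control replicate 2, and the difference in slope had a limma interaction unadjusted p of 0.102. With LGALS1 the list had 7 positive and 10 negative genes and a median of -0.07.

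Stromal, vascular and neuronal genes gave the following values. Of 17 tested fibroblast and stroma genes, 11 were positive with LGALS1 (median 0.17). Of the 17, 4 were positive and 0 negative at an unadjusted p under 0.05, against 8.37% and 6.04% of all genes. Without control replicate 2 there were 3 and 0, against 4.2% and 2.73%. PRELP, a matrix protein that anchors basement membranes, had r = 0.67 with LGALS1, and 0.64 without control replicate 2. With LGALS3, 9 of the 17 were positive and 8 negative, with a median of 0.003, and 0.11 without control replicate 2. The highest r with LGALS3 in the list was that of S100A4, a calcium-binding protein of fibroblasts and leukocytes. It was 0.77, and 0.70 without control replicate 2. COL3A1, a fibrillar collagen that defines fibroblasts, lay between 1.45 and 2.06 with sialyllactose and between 1.41 and 2.19 in controls, near the bottom of the measured range. S100A4 was dim as well, with means of 1.89 with sialyllactose and 1.96 in controls. The summed level of the 17 stroma genes ran from 65.3 to 68.5 with sialyllactose and from 65.1 to 69.8 in controls, and their part in these relations was not tested. Of 22 tested endothelium and pericyte genes, 8 were positive and 14 negative with LGALS1, with a median of -0.08, and 0.07 without control replicate 2. At an unadjusted p under 0.05, 0 were positive and 2 negative, against 8.37% and 6.04% of all genes. These were DES, the muscle filament desmin, at r = -0.64 in its brighter probe set, with 0.55 in its dimmer one, and CNN1, a calponin of smooth muscle, at -0.54. Without control replicate 2 they were -0.51, 0.52 and -0.46. CNN1 was dim, with means of 1.49 with sialyllactose and 1.57 in controls. PECAM1, an endothelial adhesion molecule, had the highest r of the list, 0.43, and 0.52 without control replicate 2. Its dimmer probe set had r = 0.18 (limma unadjusted p = 0.506), and -0.03 without that array.

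Of 16 tested genes of inner retinal neurons, 6 were positive and 10 negative with LGALS1, with a median of -0.21, and -0.18 without control replicate 2. At an unadjusted p under 0.05, 1 was positive and 3 negative, against the same shares of all genes. NEFL, the light neurofilament of ganglion cells, had r = -0.67 with LGALS1 and STMN2, a microtubule regulator of neurons, -0.57, and -0.64 and -0.51 without control replicate 2. All tested probe sets of NEFL and STMN2 had that sign. LHX1, a transcription factor of horizontal cells, was the positive one, at r = 0.65, with 0.12 with sialyllactose and 0.85 in controls, 0.51 without control replicate 2 and 0.34 without control replicates 2 and 5. Its mean level was 1.71.

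Among photoreceptor genes OPN1SW, the short-wavelength cone opsin, had r = 0.60 with LGALS3 and 0.63 without control replicate 2, and 5 of 6 tested photoreceptor genes were positive with each galectin. The median of these 6 genes was 0.34 with LGALS1 and 0.27 with LGALS3, and 0.19 and 0.09 without control replicate 2. The LGALS1 median was thus no lower than that of the Mueller glia genes (0.28) over all arrays. CD59, which blocks the membrane attack complex of complement, had r = -0.62 with LGALS3 and -0.69 without control replicate 2 in its brighter probe set. Its dimmer one had r = -0.36 (limma unadjusted p = 0.126), and -0.07 without that array. Interferon response genes were mostly negative, with 2 of 22 positive with LGALS1 (median -0.24) and 1 of 22 with LGALS3 (median -0.32). Of the 5708 tested genes other than LGALS1 and LGALS3, 3115 were positive with LGALS1 and 2883 with LGALS3. By diet the median of the 22 genes with LGALS1 was -0.07 with sialyllactose and -0.43 in controls. With LGALS3 it was -0.42 and -0.24. How far these 22 genes vary together was not tested. IFIT2, an interferon-induced protein, had r = -0.56 with LGALS3 in its brightest probe set, and -0.31 without control replicate 2. Its other tested probe sets had r of -0.27 and -0.47, and -0.14 and -0.48 without that array. All were dim, with mean levels of 1.94, 1.85 and 1.71. At an unadjusted p under 0.05 the list had 0 members with LGALS1 and 2 of 22 with LGALS3, both negative, a share near the 8.76% of all genes that were negative with LGALS3.

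**Figure D4:**
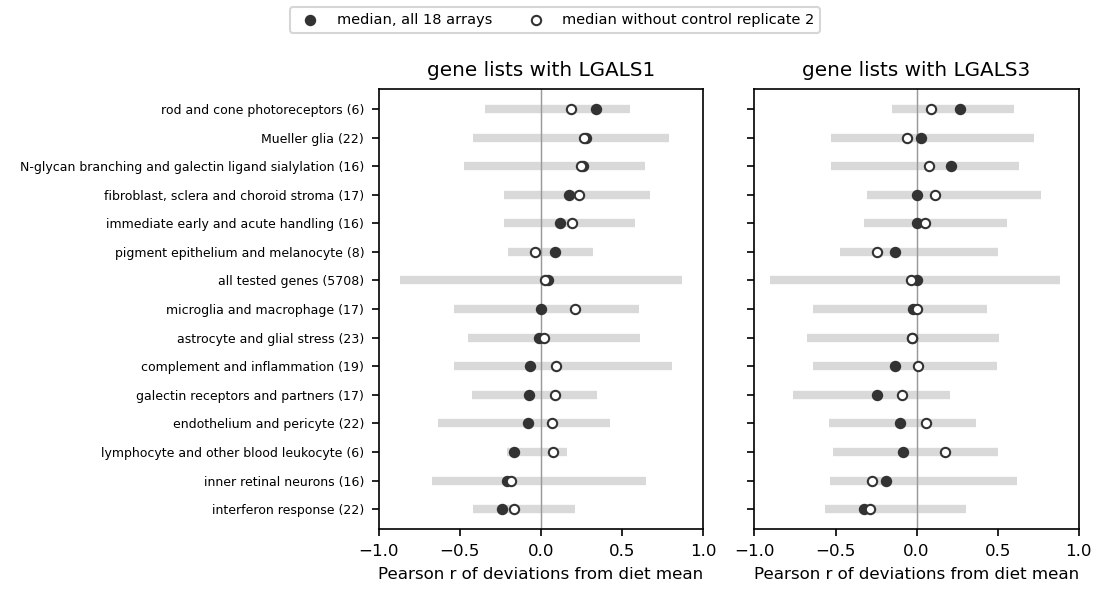
Median (circles) and range (grey bars) of within-diet Pearson r of the tested genes of each list with LGALS1 (left) and LGALS3 (right), filled for all 18 arrays and open without control replicate 2, with the number of tested genes in brackets. Mueller glia genes had a median of 0.28 with LGALS1 and 0.03 with LGALS3, against 0.04 and 0.003 over all tested genes. The 6 photoreceptor genes had medians of 0.34 and 0.27, and the 16 genes of N-glycan branching and sialylation 0.26 and 0.21.

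Across the whole array, 0 of 16798 probe sets were associated with LGALS1 within diet at a limma adjusted p under 0.05, with 1223 positive (7.28%) and 1272 negative (7.57%) at an unadjusted p under 0.05, and 623 (3.71%) and 628 (3.74%) without control replicate 2. The count after adjustment was 10 without control replicate 9, 2 without sialyllactose replicate 4 and 0 in each other fit that left out 1 array. The 12 genes most like LGALS1 were EEF1D, GATD1, NDUFS7, FN3KRP, C3, ADAMTS1, APBA3, RPS15, RLBP1, DIS3L2, DDX27 and CNOT9, with r from 0.77 to 0.87 and limma adjusted p from 0.0953 to 0.192. EEF1D, a translation elongation factor subunit, was closest. It lay at 4.97 at the lowest, 5.19 at the median and 5.37 at the highest with sialyllactose, against 4.96, 5.27 and 5.62 in controls, and its r was 0.87, or 0.81 without control replicate 2.

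C3, the central complement component, which reactive glia also make, had r = 0.81 with LGALS1, 0.73 with sialyllactose and 0.87 in controls, and 0.75 without control replicate 2. It was the highest r among 19 tested genes of complement and inflammation, which had no common direction. Of these, 9 were positive and 10 negative with LGALS1, with a median of -0.07, and 0.10 without control replicate 2. ADAMTS1, a secreted matrix protease, had r = 0.80, with r = 0.46 in its dimmer probe set, and 0.76 and 0.52 without that array. NDUFS7, a subunit of respiratory complex I, had r = 0.85 with and without control replicate 2. RPS15, a ribosomal protein, had r = 0.79, and 0.70 without it. The 6 genes most unlike LGALS1 were PFDN4, CLTC, DNAJC6, IK, RYBP and ACTR2, with r from -0.78 to -0.87. PFDN4, a subunit of the prefoldin chaperone, had r = -0.87, and -0.81 without control replicate 2. CLTC, the clathrin heavy chain (r = -0.84, and -0.78 without that array), and DNAJC6, the neuronal auxilin that uncoats clathrin vesicles (r = -0.83, and -0.74 without it), act in the same pathway. Of the 12 and 6 genes, 8 and 3 were again among the 12 and 6 without control replicate 2. In 5 of these 18 genes more than 1 probe set was tested, and the dimmer ones of CNOT9 (r = 0.04), DIS3L2 (r = 0.07) and IK (r = 0.04) did not follow LGALS1. The dimmer probe set of CLTC kept the negative sign but was much weaker, at r = -0.26 (limma unadjusted p = 0.252), and -0.30 without control replicate 2.

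With LGALS3, 45 of 16798 probe sets passed at a limma adjusted p under 0.05, 25 positive (0.149%) and 20 negative (0.119%), and 1297 (7.72%) and 1566 (9.32%) at an unadjusted p under 0.05. Among named genes 6 (0.105%) passed as positive and 7 (0.123%) as negative. Without control replicate 2 the count was 0, with 646 positive (3.85%) and 739 negative (4.4%) probe sets at an unadjusted p under 0.05. The count also moved without other arrays, to 225 without sialyllactose replicate 2, 102 without control replicate 3, and 19, 24 and 22 without control replicates 4, 5 and 6. It was 5 with array quality weights and 0 on ranks.

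The genes most like LGALS3 were MSH5, IRF3, AVPI1, TNRC6B, POLR1D, S100A4, BAMBI, DAP, NECTIN2, SSU72, CDK10 and SLC25A20, with r from 0.75 to 0.88. MSH5, a meiotic mismatch repair homologue, lay between 5.05 and 5.61 with a median of 5.30 with sialyllactose, and between 5.05 and 5.94 with a median of 5.29 in controls. The highest retina of each diet in MSH5 was replicate 2, as for LGALS3. Its r was 0.88 (limma adjusted p = 0.0158), and 0.80 without control replicate 2 (adjusted p = 0.21). IRF3, the transcription factor that starts the interferon response, had r = 0.87 (limma adjusted p = 0.019), and 0.77 without control replicate 2, which stood at 6.01 against 5.67 in the next highest control. AVPI1, a vasopressin-induced protein, changed little when that array was left out, with r = 0.85 (limma adjusted p = 0.018) and 0.84 (adjusted p = 0.149), and MSANTD4 had r = -0.85 and -0.84 (limma adjusted p = 0.0327 and 0.231), so these calls were lost with little change in r. The dimmer probe set of AVPI1 had r = 0.26 (limma unadjusted p = 0.308).

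BAMBI, a decoy receptor of TGF-beta signalling, had r = 0.76 with LGALS3 (limma adjusted p = 0.0352), 0.69 without control replicate 2 (adjusted p = 0.44), and r = 0.61 in its dimmer probe set. TNRC6B, a component of the miRNA silencing complex, and POLR1D, an RNA polymerase subunit, passed narrowly (limma adjusted p = 0.0492 for both) and had r = 0.62 and 0.65 without control replicate 2. Of the 18 fits that left out 1 array, TNRC6B passed in 3 and POLR1D in 5, while BAMBI, ELMO1 and MSANTD4 passed in 12 each and MSH5, IRF3, AVPI1, HNRNPA1 and UBE2D3 in all 17 that kept control replicate 2. NECTIN2, a cell adhesion molecule, had r = 0.75 with LGALS3, and 0.54 without control replicate 2. Its r was 0.37 with sialyllactose and 0.92 in controls, with a limma interaction p of 0.00811 before adjustment that did not pass over all probe sets.

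The 6 genes most unlike LGALS3 were HNRNPA1, ARPP19, MSANTD4, ELMO1, UBE2D3 and DLD, with r from -0.83 to -0.90. HNRNPA1, an RNA-binding splicing factor, had r = -0.90 (limma adjusted p = 0.018), and -0.84 without control replicate 2 (adjusted p = 0.248). UBE2D3, a ubiquitin-conjugating enzyme, had r = -0.83 (limma adjusted p = 0.018), and -0.72 without control replicate 2, which stood at 4.74 against 5.53 in the next lowest control. ELMO1, which links phagocytic receptors to the cytoskeleton, had r = -0.83 (limma adjusted p = 0.0352), and -0.77 without that array (adjusted p = 0.44). Of the 12 and 6 genes, 3 and 4 were again among the 12 and 6 without control replicate 2. In 4 of the 12 genes more than 1 probe set was tested, and all had a positive sign. The dimmer probe sets of BAMBI and POLR1D had r of 0.61 and 0.67. Those of AVPI1 and TNRC6B were much weaker, at 0.26 and 0.29, and 0.40 and 0.05 without control replicate 2.

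**Figure D5:**
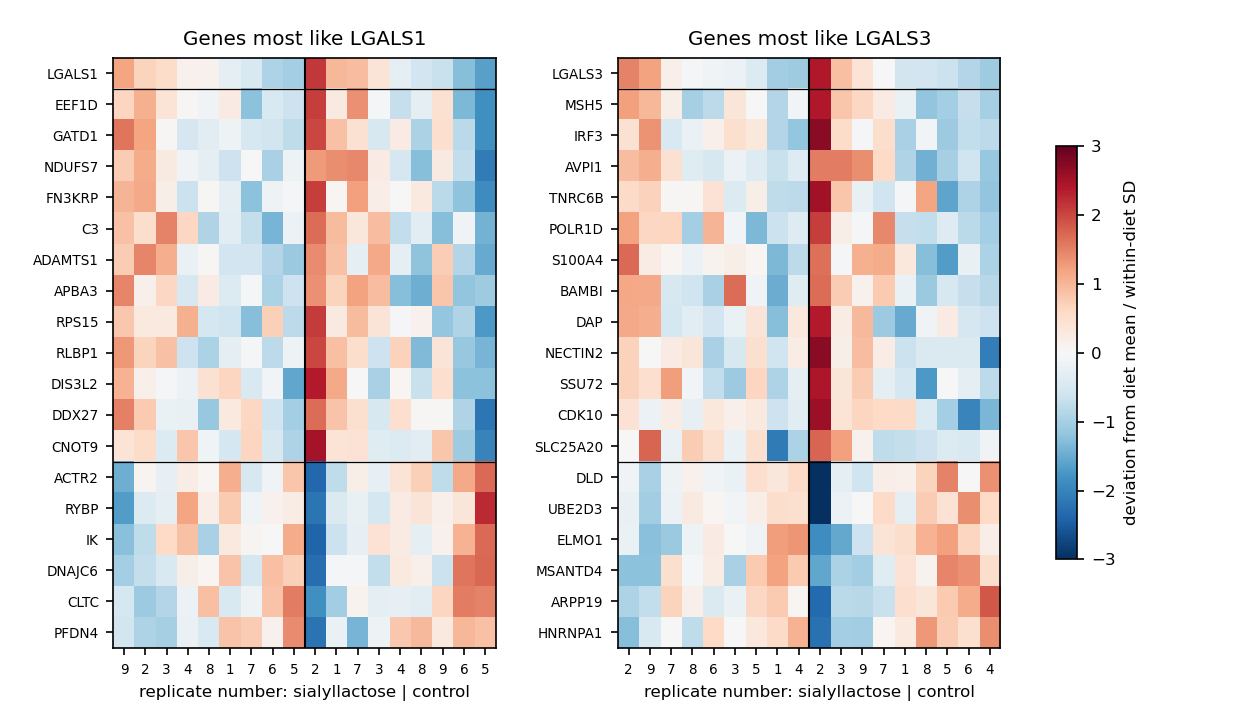
Deviation from the diet mean, divided by the within-diet SD, of the 12 genes most like and the 6 most unlike LGALS1 (left) and LGALS3 (right), below the galectin itself, in 18 retinas ordered by the galectin within sialyllactose (left of the line) and control (right of it). Control replicate 2 has the deepest colours in most genes of both panels, and for LGALS3 sialyllactose replicates 2 and 9 follow the same pattern more weakly.

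The arrays gave these further values. The first principal component of the deviations had r = 0.68 with LGALS1 and 0.80 with LGALS3, and 0.30 and 0.45 without control replicate 2. The difference between 3′ and 5′ control probe sets of actin, GAPDH and an elongation factor, a measure of RNA quality, had r = 0.01 with LGALS1 and -0.01 with LGALS3. Between the diets, 0 of 16798 probe sets differed in slope on either galectin at a limma adjusted p under 0.05, with 983 (5.85%) for LGALS1 and 1129 (6.72%) for LGALS3 at an unadjusted p under 0.05.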

How the data were processed

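Total RNA of each retina was hybridised to 1 single-channel Affymetrix pig array per piglet, per the labels. The deposited values are log2 signals, 1 for each probe set on each array. The submitters' processing notes name RMA and the Affymetrix Expression Console, whose settings and versions are not given in the sources used here. RMA values carry no detection call and place all arrays on 1 distribution. Groups and replicate numbers came from the sample titles. Deviations of same-numbered retinas correlated between -0.113 and 0.164, over 0.1 in 3 of 9 pairs, so the numbers were not taken to pair retinas.

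From these values 124 control probe sets and the 30% with the lowest mean (7200) were left out, leaving 16799. Symbols came from the platform annotation (10099 probe sets with 1 symbol, 198 with several, 13826 with none); the identifiers of 9989 were found in a RefSeq gene table. A gene was represented by its brightest tested probe set. Diet was tested with limma 3.58.1 (lmFit, eBayes without trend; R 4.3.3) and association with diet and the galectin level as terms, each with Benjamini-Hochberg adjustment over all tested probe sets at 0.05. Pearson and Spearman correlations of deviations from diet means used 100000 permutations within diets, or exact permutations at n = 9; the smallest p these permutations can give is 1e-05. An adjustment over the 37 key relations alone, named in the plan, was replaced by that over all probe sets. Steps were tested on simulated data.

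Named were the 12 most positive and 6 most negative genes per galectin, the key genes and up to 3 members of each list by smallest p per galectin, of which those described are given. The galectins, the rule and the lists were chosen with earlier results of these data known. Alternatives were no filter or a 50% filter, median centring, quantile normalization, the first principal component or replicate number as a term, array weights, an intensity trend, ranks, a threshold of 0.1 and leaving out each array; the 3′ to 5′ difference as a term, ranks for the key relations and lists without control replicate 2 were chosen after seeing the data. Nothing names separate litters, so p-values measure the spread between these piglets. The number of arrays limits the precision.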

Additional observations from a re-analysis of the deposited data

Results flagged for a closer look

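In 140 groups of 9 retinas, 2 for each of the 70 genes named with a galectin, the gap between the highest or lowest retina and the next was divided by the range of the group, and 9 gaps passed Dixon's critical value; chance gives about 1 in 20 groups. LGALS1 and LGALS3 had none. Control replicate 2 stood apart in 3 genes that follow or oppose LGALS3: it was the lowest control in DLD, a dehydrogenase subunit of the mitochondrial matrix, at 7.28 against 7.53 in the next, the highest in IRF3 at 6.01 against 5.67, and the lowest in UBE2D3 at 4.74 against 5.53. Sialyllactose replicate 9 was the lowest of its group in DLD (7.52 against 7.60) and UBE2D3 (5.46 against 5.67). Sialyllactose replicate 1 was the highest of its group in GJA1 (3.59 against 2.40) and in VIM (8.97 against 8.61). IL1B was lowest in sialyllactose replicate 2 (2.35 against 2.85), and MGAT5 in control replicate 9 (5.79 against 5.93).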

How the results depend on the processing

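The LGALS1 difference between diets stayed negative and did not pass in any alternative run, from -0.28 to -0.17 with single arrays left out; the LGALS3 difference ran from -0.0904 to 0.1605 and was -0.0022 after quantile normalization, so it has no settled direction. The LGALS3 spread difference ran from -0.1409 to 0.0638. The number of probe sets associated with LGALS1 (0) was 23 at a threshold of 0.1, 2 with a 50% filter, 8 after quantile normalization and 16 with an intensity trend and robust prior, and 0 to 10 with single arrays left out. The number associated with LGALS3 (45) was 404, 87, 28 and 184 under the same settings, 5 with array weights, 0 with the first principal component as a term, 0 on ranks, and 0 to 225 with single arrays left out. The number of passing key relations (0) was 1 with a 50% filter, 2 with an intensity trend, 1 with the 3′ to 5′ difference as a term, and 0 to 1 with single arrays left out. With the replicate number as a block, which does not pair these retinas, the LGALS3 count was 0 and these r changed sign: LAPTM5 (-0.13) and CNN1 (0.0319) with LGALS1, and with LGALS3 DBI (-0.0172), ST6GAL1 (-0.23), GFAP (0.70), LAPTM5 (0.0763), VIM (0.29), CD59 (0.0833) and IL1B (0.26). With the first component as a term, RLBP1 (-0.20), CD14 (-0.11) and LAPTM5 (0.0357) changed sign with LGALS3, as did CD14 on ranks (-0.0083), and GFAP after quantile normalization (0.0107) and with the 3′ to 5′ term (0.0007). With single arrays left out, the r of GFAP with LGALS3 ran from -0.1095 to 0.1345, of CD14 with LGALS3 from -0.0094 to 0.4348 and of LAPTM5 with LGALS1 from -0.0490 to 0.2343. Under the other settings run the named relations kept their sign, all 80 of them except with the 50% filter, under which 64 were run, while 10 lost an adjusted p under 0.05 with the first component, with the block or on ranks, 8 with array weights, and 12 gained it with an intensity trend. The 50% filter removed LGALS3 itself, so it gave no diet value there, and other probe sets could not be tried because each galectin had 1. The cause of these changes was not tested.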
